A study of Mus musculus with 6 samples.

Results

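The autophagy genes of cultured mouse pulmonary artery smooth muscle cells, or mPASMCs, were followed in RNA sequencing data obtained after knockdown of the long noncoding RNA *Snhg18*. They were chosen by annotation and symbol, as the genes typed protein-coding whose symbol belongs to the core autophagy machinery or to its main cargo receptors, and 50 of the 55487 genes in the table met this rule. The rule uses no expression value, but it was set with earlier results of these data known. All 50 passed the filter on low counts and were tested. The set comprised the ATG genes, the ULK kinases, the class III PI3-kinase genes, the LC3 and GABARAP genes, and receptors for ubiquitinated cargo, mitochondria and endoplasmic reticulum. It also took in *Atg4a-ps*, which the file types as protein-coding although its description names a pseudogene. The study compared mPASMCs transfected with a control siRNA (si-NC, 3 libraries, genotype given as Control) with mPASMCs transfected with an siRNA against *Snhg18* (si-*Snhg18*, 3 libraries). The cells were purchased, used at low passage and grown in serum-containing medium, and both groups carried an siRNA delivered with a lipid reagent. Neither the oxygen level nor the time after transfection is given for the sequenced cells, and the study lists a single siRNA sequence against mouse *Snhg18*. Nothing in the labels says that the libraries of a group came from separate cultures, so the p-values measure only the spread between these libraries, which may be technical.

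Macroautophagy encloses cytoplasm in a double membrane, the autophagosome, which then fuses with lysosomes. The ULK kinase complex starts the process, a class III PI3-kinase complex marks the growing membrane with PI3P, ATG9 vesicles and ATG2 lipid transfer proteins supply lipid, and a pair of ubiquitin-like conjugation systems attach LC3 and GABARAP proteins (the Atg8 family) to the membrane, where receptors bring in cargo. Autophagy in pulmonary artery smooth muscle is known to respond to hypoxia, and several mitophagy receptors are targets of hypoxia-inducible factors. Messenger RNA levels report the supply of these components and not the flux through the pathway, which RNA counts do not measure.

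The libraries held 18097718 to 25988746 counted reads, and 3 reads in a library corresponded to 0.115 to 0.164 CPM, the count scaled to the library size. This floor covers counting error only. *Snhg18* was at 23.5, 22.4 and 22.2 CPM in si-NC and at 10.6, 11.2 and 9.97 CPM in si-*Snhg18*, so 46.7% of the control level remained (log2 fold change -1.10 ± 0.10 SE, edgeR adjusted p = 0.00727). All CPM values are scaled by TMM factors. The summed level of 8 smooth muscle markers was 1750 to 1896 CPM in si-NC and 1202 to 1851 CPM in si-*Snhg18*, while *Myocd*, a defining regulator of that lineage, stayed at 0.49 to 2.22 CPM. Of these markers *Tagln* was called lower (log2 fold change -0.51, edgeR adjusted p = 0.0427), and *Cnn1*, *Des* and *Myh11* were called lower as well with the block. Of the marker lists of other cell types, the 4 fibroblast genes summed to 512 to 583 CPM in si-NC and 369 to 504 CPM in si-*Snhg18*, most of it *Pdgfra*, and the 5 leukocyte genes to 99.8 to 123 and 53.7 to 59.8 CPM. Of the leukocyte genes, *Cd53* was called lower, *Ptprc* never exceeded 8 reads, and *Adgre1* and *Cd3e* had 0. Endothelial, epithelial and cardiac markers summed to at most 14.7, 22.3 and 8.27 CPM in any library. In these other lists, the block added calls of *Pdgfra*, *Krt18* and *Tek* as lower and of *Tnnt2* as higher (edgeR adjusted p = 0.0112, 0.00216, 0.0341 and 0.0456). The fibroblast and leukocyte sums did not overlap between the groups and were lower in si-*Snhg18*, but they followed *Pdgfra* and *Cd53*. Mean CPM in si-NC and si-*Snhg18* was 477 and 376 for *Pdgfra* and 109 and 50.7 for *Cd53*. *Dcn* (42.8 and 44.7), *Dpt* (23.8 and 28.9), *Lum* (1.28 and 0.94) and the leukocyte gene *Csf1r* (5.96 and 5.41) overlapped between the groups. The part of the marker genes in the values of the autophagy genes was not tested. In bulk RNA, fewer cells of a type and less RNA per cell cannot be told apart. The libraries numbered 2 stood apart from the others in both groups. Among the autophagy genes, number 2 was the lowest library of both groups for 20 of 50 (40%) and the highest of both for 8 (16%), against 29.8% and 32.2% of all tested genes.

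Few autophagy genes passed the test after *Snhg18* knockdown, and those that did were spread over different steps of the pathway. *Atg4b*, *Atg12* and *Retreg2* rose and *Tax1bp1* fell at an adjusted p below 0.05 in edgeR's quasi-likelihood test with Benjamini-Hochberg adjustment over all 14531 genes tested, which is called the edgeR adjusted p here. The 3 genes that rose were set against 3.65% of all tested genes called higher, and the 1 that fell against 3.71% called lower, or 7.36% called in either direction. A count of 4 in 50 is thus close to this background. The log2 fold changes of the 50 genes ran from -0.75 to 0.63 with a median of 0.15, against a median of 0.01 over all genes tested. Values were above 0 for 31 of the genes and below 0 for 19, and 50.8% of all tested genes lay above 0. With at least a 1.5-fold change required as well, 0 of 50 were called by edgeR, against 3.67% of all genes (1.72% called higher and 1.95% lower). DESeq2 called 2 of 50 at this threshold, *Atg9a* and *Retreg1*, against 6.31% of all genes, and limma-voom with sample weights called 5 against 15.6%. At any fold change, 16 of the 50 had an unadjusted p below 0.05 in edgeR, against 24.9% of all genes. The plot of fold changes by role shows every gene with its error.

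**Figure D1:**
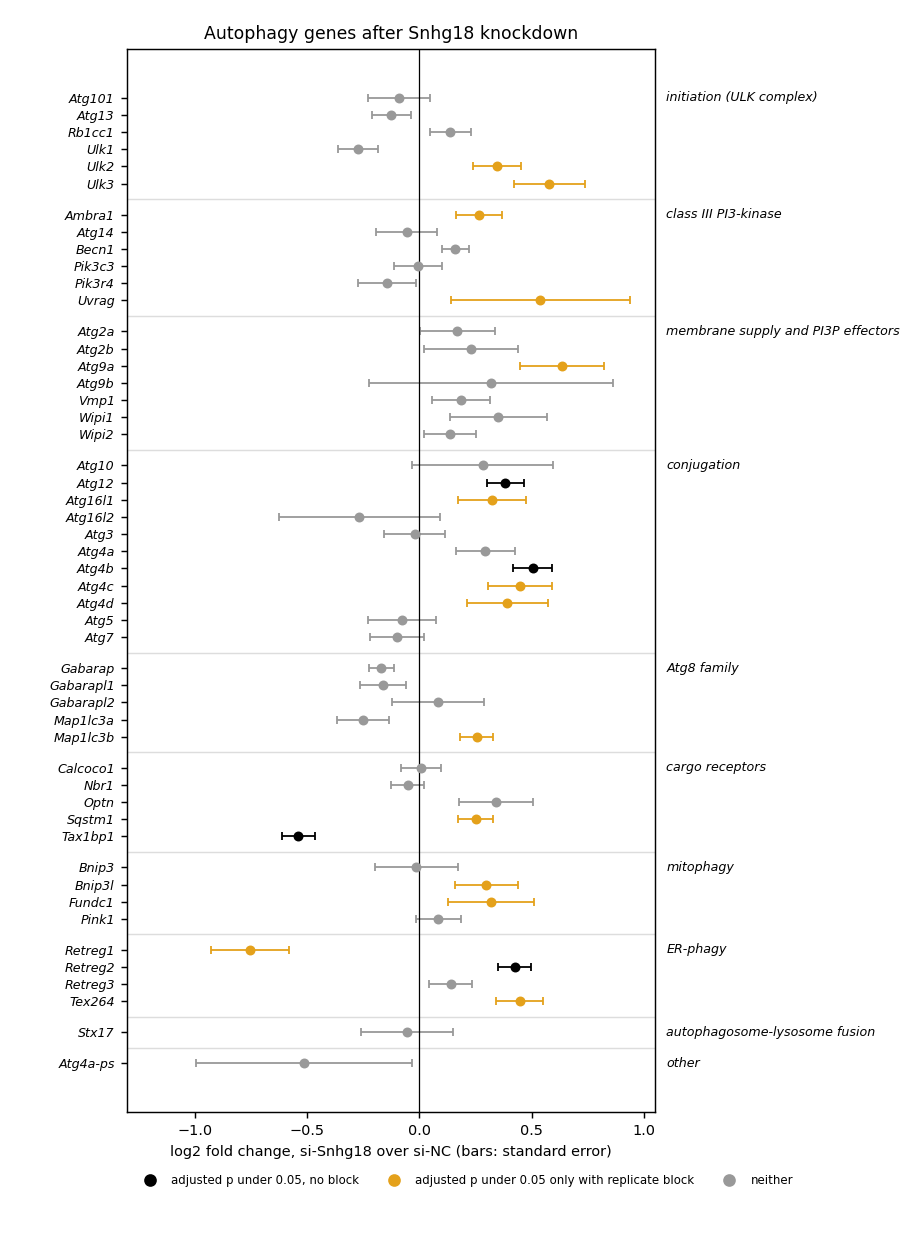
Log2 fold change (si-*Snhg18* over si-NC) of the 50 autophagy genes, grouped by role, with bars giving the standard error of the fit to 3 libraries per group. Black points mark genes called without the replicate block, yellow points those called only with it, and grey points the rest; *Retreg1* lies lowest at -0.75 and *Atg9a* highest at 0.63.

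Same-numbered libraries of the groups deviated together. Over all tested genes, the deviations of same-numbered libraries from their group means correlated with r = 0.41, 0.74 and 0.36 for numbers 1, 2 and 3, so a fit in which that number formed a block was read beside the other. Since number 2 stood apart in both groups, numbers 1 and 3 deviate together the other way, paired or not. These correlations therefore do not show that the numbers pair the libraries. In that fit 16 autophagy genes rose and 2 fell, against 13.6% of all tested genes in each direction, and 27.2% in either. The genes that rose were *Ulk2*, *Ulk3*, *Ambra1*, *Uvrag*, *Atg9a*, *Atg12*, *Atg16l1*, *Atg4b*, *Atg4c*, *Atg4d*, *Map1lc3b*, *Sqstm1*, *Bnip3l*, *Fundc1*, *Retreg2* and *Tex264*, and those that fell were *Tax1bp1* and *Retreg1*. With the 1.5-fold change required in addition, *Atg9a* and *Retreg1* were left as 1 gene higher and 1 lower, against 4.24% and 5.85% of all genes and 10.1% in either direction. Without reference to any test, the groups did not overlap for 13 genes that were higher and 4 that were lower in si-*Snhg18*, against 15.4% and 15.5% of all genes. In the 3 same-numbered pairs, 23 genes were higher in every pair, 9 were lower in every pair and 18 were mixed, where 29.6% and 30% of all genes were higher or lower in every pair. Both fits rest on few libraries. The 4 calls of the fit without the block became 0 without any 1 of si-NC 1, si-NC 2, si-NC 3 or si-*Snhg18* 3, 1 without si-*Snhg18* 1, and 14 without si-*Snhg18* 2, and the 18 calls with the block became 22, 16 and 1 without number 1, 2 and 3.

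**Figure D2:**
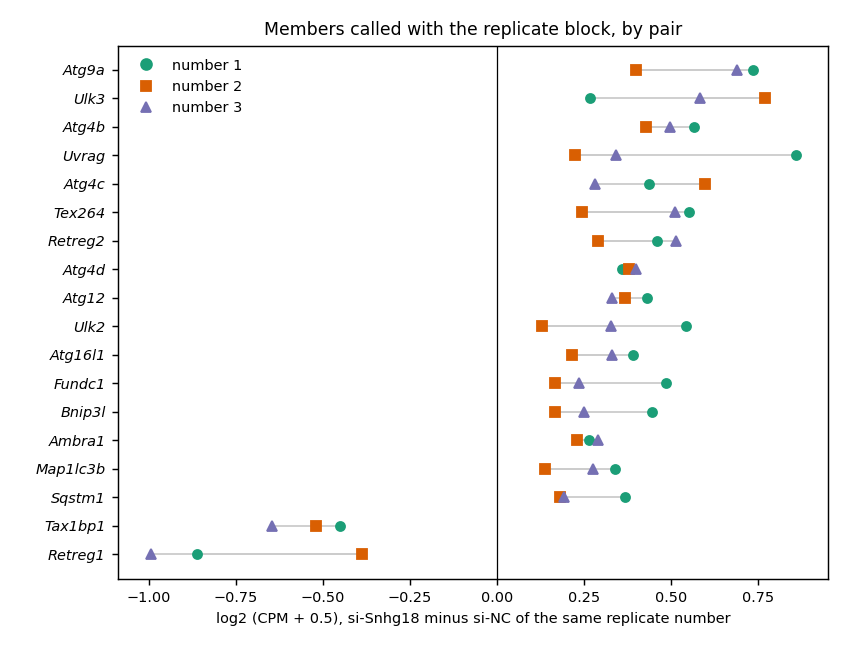
Difference in log2 (CPM + 0.5), si-*Snhg18* minus si-NC, within each replicate number for the 18 autophagy genes called with the replicate block. Circles, squares and triangles stand for numbers 1, 2 and 3; for *Uvrag* the difference is 0.86 in number 1 but 0.22 in number 2, whereas *Tax1bp1* lies between -0.65 and -0.45.

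The conjugation machinery held 2 of the 3 genes that rose. *Atg4b* encodes the main cysteine protease that trims Atg8 proteins before conjugation and later cleaves them from lipid. It lies on chromosome 1 (93751500 to 93790610, plus strand, GRCm38) and was at 46.8, 43.2 and 44.9 CPM in si-NC and 69.5, 58.2 and 63.5 CPM in si-*Snhg18*. Every si-*Snhg18* library lay above every si-NC library. The log2 fold change was 0.50 ± 0.09 (SE) with an edgeR adjusted p of 0.0264, and 0.00251 with the block. *Atg12* encodes the ubiquitin-like protein that is joined to ATG5, and it measured 52.5, 48.9 and 48.7 CPM in si-NC and 70.9, 63.2 and 61.4 CPM in si-*Snhg18*. Here too the groups did not overlap, and the log2 fold change of 0.38 ± 0.08 had an edgeR adjusted p of 0.0447, or 0.00574 with the block. *Atg5*, the partner of *Atg12*, was at 26.4, 26.4 and 26.3 CPM in si-NC and 28.9, 19.5 and 26.5 CPM in si-*Snhg18*. The si-*Snhg18* libraries of *Atg5* thus lay on both sides of the tight control values, and the log2 fold change of -0.08 ± 0.15 was not called in either fit.

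Over the 11 conjugation genes the median log2 fold change was 0.29, with 7 above 0 and 4 below, where 50.8% of all genes lay above 0. With the block 5 rose and 0 fell, against 13.6% of all genes in each direction. Besides *Atg12* and *Atg4b*, these were *Atg16l1*, whose product places the ATG12-ATG5 conjugate on the membrane, and the further Atg8 proteases *Atg4c* and *Atg4d*. *Atg16l1* was at 42.7, 34.2 and 40.6 CPM in si-NC and 56.1, 39.8 and 51.2 CPM in si-*Snhg18*. Its groups overlapped because si-*Snhg18* 2 lay below si-NC 1 and si-NC 3, and its log2 fold change of 0.32 ± 0.15 had an edgeR adjusted p of 0.247, which became 0.0191 with the block. *Atg4c* had a log2 fold change of 0.45 ± 0.14 with non-overlapping groups (edgeR adjusted p = 0.117, and 0.0305 with the block). *Atg4d* had one of 0.39 ± 0.18 with edgeR adjusted p = 0.24, and 0.028 with the block. Of the exon bases of *Atg4d*, 19.3% are shared with *Kri1* on the opposite strand, and *Kri1* itself was at 31.7 CPM in si-NC and 33.7 CPM in si-*Snhg18*. The fourth protease gene, *Atg4a*, was at 10.3 ± 0.60 and 12.6 ± 1.42 CPM (mean ± SD, n = 3) and was not called in either fit. The E1-like *Atg7*, the E2-like *Atg3* and *Atg10*, and *Atg16l2* were not called either, with log2 fold changes of -0.10, -0.02, 0.28 and -0.27.

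**Figure D3:**
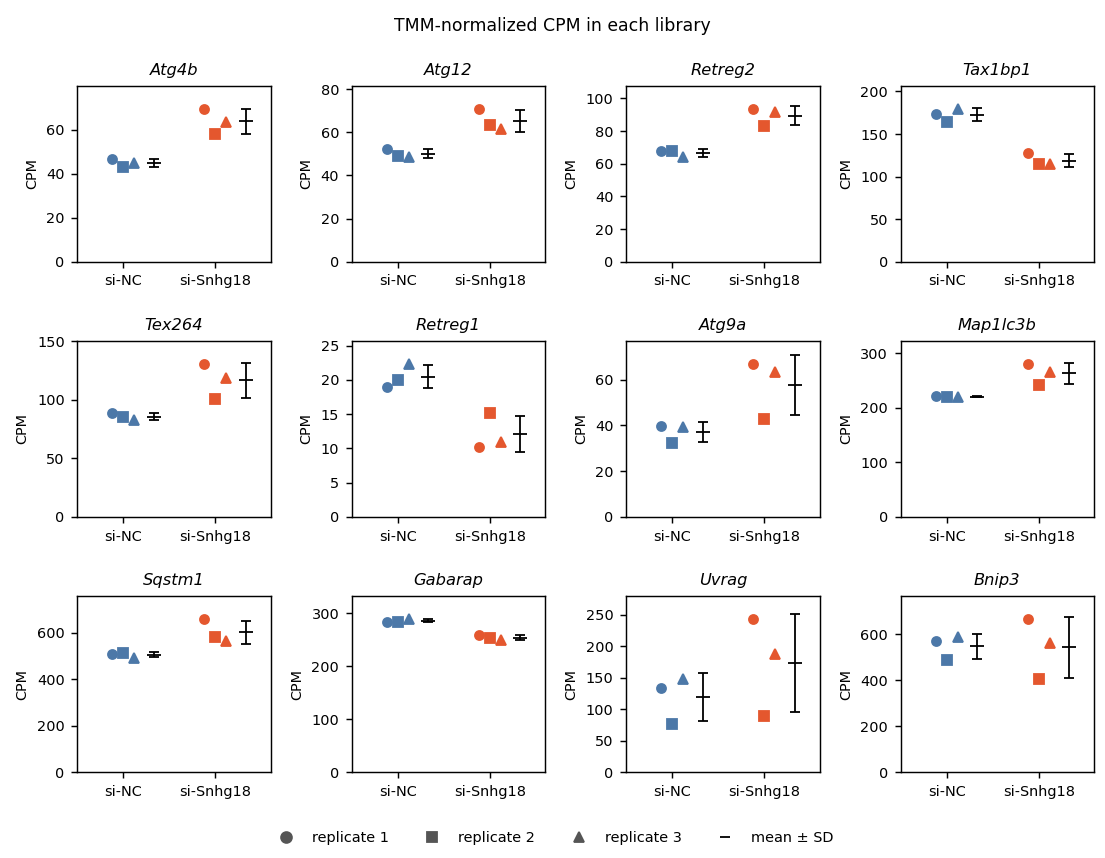
TMM-normalized CPM of 12 autophagy genes in each library, on linear axes that start at 0. Blue and orange symbols are si-NC and si-*Snhg18* libraries, their shape gives the replicate number, and the bar at the right of each group is the mean ± SD (n = 3); the groups overlap only for *Uvrag* and *Bnip3*.

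Among the receptors for ubiquitinated cargo, *Tax1bp1* and *Sqstm1* went opposite ways with the block. *Tax1bp1* encodes an adaptor that binds ubiquitin and LC3 and lies on chromosome 6 (52713729 to 52766780, plus strand). It was at 174, 164 and 179.6 CPM in si-NC and 127, 115 and 115 CPM in si-*Snhg18*, with no overlap. The log2 fold change was -0.54 ± 0.07 and the edgeR adjusted p was 0.0144, the smallest among the 50 genes, and 0.00155 with the block. *Sqstm1* encodes p62, the archetypal autophagy receptor, which autophagy itself degrades. It measured 509.7, 513 and 492 CPM in si-NC and 658, 582 and 563 CPM in si-*Snhg18*. All si-*Snhg18* libraries lay above the control libraries, by a log2 fold change of 0.25 ± 0.08, which had an edgeR adjusted p of 0.112 without and 0.023 with the block. Exons of *Sqstm1* overlap those of *Mrnip* on the opposite strand over 17.3% of their bases, and *Mrnip* stayed at 1.19 and 1.07 CPM in the groups. *Nbr1*, *Optn* and *Calcoco1*, the other 3 receptors, had log2 fold changes of -0.05, 0.34 and 0.01 and were not called in either fit.

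With the block, the ER-phagy receptors too held genes that rose and a gene that fell. *Retreg2* encodes a reticulon-type protein of the family that bends endoplasmic reticulum membrane for engulfment, and lies on chromosome 1 (75142778 to 75147913, plus strand). It was at 68.0, 67.9 and 64.1 CPM in si-NC and 93.7, 83.0 and 91.7 CPM in si-*Snhg18*. The groups did not overlap, with a log2 fold change of 0.43 ± 0.07 and an edgeR adjusted p of 0.0254, or 0.00476 with the block. Its relative *Retreg1* (FAM134B), a receptor for sheets of endoplasmic reticulum, was at 19.0, 20.01 and 22.3 CPM in si-NC and 10.2, 15.2 and 10.96 CPM in si-*Snhg18*. This was the lowest fold change of the 50 genes, -0.75 ± 0.17 on the log2 scale, and its edgeR adjusted p was 0.0528 without and 0.00812 with the block. *Tex264*, a single-pass receptor of the endoplasmic reticulum, measured 88.9, 85.0 and 82.9 CPM in si-NC and 131, 101 and 118 CPM in si-*Snhg18*. Its groups did not overlap, and the log2 fold change of 0.45 ± 0.10 had an edgeR adjusted p of 0.0536, or 0.00615 with the block. The remaining gene, *Retreg3*, had a log2 fold change of 0.14 ± 0.10 and was not called in either fit.

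Among the ULK kinase genes, *Ulk2* and *Ulk3* rose with the block and *Ulk1* was not called in either edgeR fit. DESeq2 called *Ulk3* without the block too, and limma-voom with sample weights called *Ulk2* and *Ulk3* higher and *Ulk1* lower. Over all 14531 genes tested, DESeq2 called 2069 and limma-voom called 6049. *Ulk1*, the kinase that mTORC1 and AMPK act upon, was at 58.2, 67.1 and 63.7 CPM in si-NC and 56.5, 49.7 and 50.1 CPM in si-*Snhg18*. Its 3 si-*Snhg18* libraries all lay below the control libraries, with a log2 fold change of -0.27 ± 0.09 that was not called in either fit (edgeR adjusted p = 0.124, and 0.0568 with the block). *Ulk2*, its close paralog, measured 65.0, 66.2 and 68.7 CPM in si-NC and 94.97, 72.4 and 86.4 CPM in si-*Snhg18*. *Ulk3* measured 8.85, 8.82 and 9.28 CPM in si-NC and 10.8, 15.4 and 14.1 CPM in si-*Snhg18*. Both *Ulk2* and *Ulk3* were higher in every si-*Snhg18* library than in the controls, and with the block they rose by log2 fold changes of 0.34 and 0.57 (edgeR adjusted p = 0.0263 and 0.0221). Without the block their edgeR adjusted p was 0.111 and 0.0824. The scaffold genes of the complex, *Rb1cc1* (FIP200), *Atg13* and *Atg101*, had log2 fold changes of 0.14, -0.13 and -0.09 and were not called in either fit.

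In the class III PI3-kinase complex the catalytic subunit gene *Pik3c3* (VPS34) and the regulatory subunit gene *Pik3r4* (VPS15) were not called in either fit, with log2 fold changes of -0.01 ± 0.11 and -0.14 ± 0.13. *Becn1*, the scaffold that BCL2 proteins hold in check, was at 89.1, 94.8 and 89.4 CPM in si-NC and 103, 103 and 99.6 CPM in si-*Snhg18*. The groups did not overlap, but the log2 fold change was only 0.16 ± 0.06, with an edgeR adjusted p of 0.167 without and 0.0749 with the block. Opposite-strand *Cntd1* covers 43.9% of the *Becn1* exon bases and never exceeded 9 reads. *Uvrag*, a BECN1 partner that also acts in endosome traffic, was at 134, 76.1 and 148 CPM in si-NC and 243, 88.9 and 188 CPM in si-*Snhg18*. Library number 2 was far below the others in both groups, and the log2 fold change of 0.54 ± 0.40 without the block (edgeR adjusted p = 0.45) became 0.48 ± 0.12 with it (edgeR adjusted p = 0.0221). *Ambra1*, which links BECN1 to the ULK complex, rose with the block by 0.26 ± 0.06 (edgeR adjusted p = 0.0216, and 0.167 without it). *Atg14*, which directs the complex to autophagosome formation, had a log2 fold change of -0.06 ± 0.14.

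All 7 genes of membrane supply and PI3P reading had log2 fold changes above 0, with a median of 0.23, and of these only *Atg9a* was called by edgeR, in the fit with the block. DESeq2 called *Atg9a* without the block too, and limma-voom with sample weights called *Atg9a*, *Atg2b*, *Vmp1* and *Wipi1*. These calls stand against 2069 and 6049 of all 14531 genes tested. *Atg9a* encodes the lipid scramblase of the vesicles that seed autophagosomes and measured 40.0, 32.2 and 39.2 CPM in si-NC and 66.9, 42.7 and 63.5 CPM in si-*Snhg18*. It had the highest fold change of the 50 genes, 0.63 ± 0.19 on the log2 scale, with an edgeR adjusted p of 0.0959 without and 0.00306 with the block. The gene model *Gm29253* shares 31.8% of the *Atg9a* exon bases on the same strand and had 0 reads in every library. The PI3P effector *Wipi1* was at 144, 126 and 152 CPM in si-NC and 226, 123 and 190.4 CPM in si-*Snhg18*. It was not higher in number 2, and its edgeR adjusted p was 0.364, or 0.092 with the block. *Wipi2*, *Vmp1*, *Atg2a* and *Atg2b* had log2 fold changes of 0.14 to 0.23, and *Atg9b* was barely detected at 1.53 ± 0.53 CPM in si-NC.

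Of the 5 Atg8 family genes, *Map1lc3b* alone was called by edgeR, with the block. DESeq2 called *Map1lc3b* without the block too. With sample weights, limma-voom called *Map1lc3b* higher and *Gabarap*, *Gabarapl1* and *Map1lc3a* lower. Of all 14531 genes tested, DESeq2 called 2069 and limma-voom 6049, so such calls were common. *Map1lc3b* (LC3B), the usual marker of autophagosomes, was at 221, 220.1 and 219.8 CPM in si-NC and 280.4, 242 and 266 CPM in si-*Snhg18*. The control libraries were nearly identical and all si-*Snhg18* libraries were higher, with a log2 fold change of 0.26 ± 0.07 (edgeR adjusted p = 0.0909, and 0.0223 with the block). *Gabarap* was instead at 284, 284 and 289 CPM in si-NC and 259, 253 and 249.6 CPM in si-*Snhg18*. Its groups did not overlap either, but its log2 fold change of -0.17 ± 0.06 was not called in either edgeR fit (edgeR adjusted p = 0.131, and 0.0559 with the block). *Map1lc3a*, *Gabarapl1* and *Gabarapl2*, with log2 fold changes of -0.25, -0.16 and 0.08, were not called in either fit, and 28.3% of the *Gabarapl1* exon bases are shared with an opposite-strand transcript of at most 1.08 CPM.

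Of the 4 mitophagy genes, 0 were called by edgeR without the block and 2 rose with it, against 13.6% of all genes called higher. Without it 0 of the 4 had an unadjusted p below 0.05 in edgeR. DESeq2 called 0 of them and limma-voom with sample weights 1 (*Bnip3l*), against 2069 and 6049 of all 14531 genes tested. *Bnip3*, a hypoxia-inducible receptor of the outer mitochondrial membrane, was at 572, 487 and 587 CPM in si-NC and 666, 404 and 561 CPM in si-*Snhg18*. Its si-*Snhg18* libraries spread over a wider range than the controls and on both sides of them, and the log2 fold change was -0.01 ± 0.18. *Bnip3l* (NIX), its paralog, was at 251, 216 and 260.0 CPM in si-NC and 342, 242 and 309.6 CPM in si-*Snhg18*. It was higher in each of the 3 same-numbered pairs and rose with the block by 0.29 ± 0.07 (edgeR adjusted p = 0.0202), against an edgeR adjusted p of 0.253 without it. *Fundc1*, a further hypoxia-responsive receptor, rose with the block by 0.30 ± 0.09 (edgeR adjusted p = 0.0378, and 0.351 without it). *Pink1*, the kinase that marks damaged mitochondria, was at 25.3 ± 0.62 CPM in si-NC and 26.8 ± 2.57 CPM in si-*Snhg18* (mean ± SD, n = 3) and was not called in either fit. The SNARE gene *Stx17*, which acts in fusion with lysosomes, had a log2 fold change of -0.06 ± 0.21, and *Atg4a-ps* had under 1 CPM in every library.

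Levels were compared between genes per kilobase of exon (CPM per kb), since longer transcripts yield more reads. In si-NC, *Bnip3* was highest at 313 ± 30.8 CPM per kb (mean ± SD, n = 3), followed by *Gabarap* at 211 ± 2.06 and *Sqstm1* at 189 ± 4.14. These 3 exceeded every other autophagy gene. *Map1lc3b* at 87.1 ± 0.31, *Bnip3l* at 74.8 ± 7.23, *Gabarapl1* at 70.5 ± 6.29 and *Wipi1* at 68.7 ± 6.38 CPM per kb came next, and the last 3 of these did not differ beyond their spread. In si-*Snhg18*, *Sqstm1* at 225 ± 18.9 CPM per kb stood above *Gabarap* at 188 ± 3.41, reversing their order on the deposited lengths. At the lower end, the ULK complex genes lay between 3.18 and 16.8 CPM per kb and the 4 *Atg4* protease genes between 2.08 and 10.8, and *Atg9b* at 0.39 ± 0.14 and *Atg4a-ps* at 0.41 ± 0.01 were the lowest. The exon length in the file for *Atg16l2*, 473 bases, is far below the 8469 bases of its annotated exons, so its level per kilobase was not used. The annotated exons of other genes were also longer than the deposited length, 7517 against 2532 bases for *Map1lc3b*. On annotated lengths, a comparison added after seeing the data, *Bnip3*, *Gabarap* and *Sqstm1* were still the highest in si-NC at 242, 155 and 151 CPM per kb. There *Gabarap* (SD 1.51) and *Sqstm1* (SD 3.30) did not differ beyond their spread. *Map1lc3b* was at 29.3, *Wipi1* at 32.0 and *Tax1bp1* at 17.3, so the order below *Bnip3* depends on the length used.

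**Figure D4:**
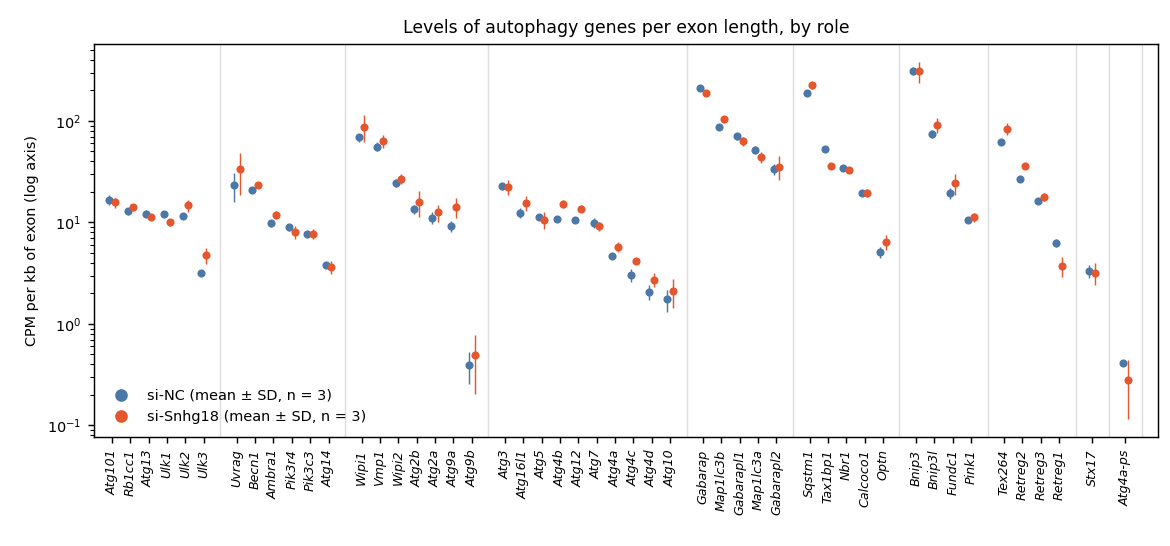
CPM per kb of exon (log axis) of the autophagy genes by role, with points and bars giving the mean ± SD of 3 libraries for si-NC and si-*Snhg18*; *Atg16l2* is left out. In si-NC, *Bnip3*, *Gabarap* and *Sqstm1* lie above all others, at 313, 211 and 189.

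Within gene families, the share of some genes in the summed level did not overlap between the groups, while that of others did, among them all 4 *Atg4* genes. A share within a library does not depend on library size or on the scaling factors, although it shows only unequal change of the members. *Ulk1* made up 44.9% ± 1.63 of the summed CPM per kb of the 3 Ulk genes in si-NC and 33.9% ± 1.29 in si-*Snhg18* (SD, n = 3). *Map1lc3b* went from 19.2% ± 0.34 to 23.9% ± 0.77 of the Atg8 family, and *Gabarap* from 46.5% ± 0.77 to 43.4% ± 1.57. For *Tax1bp1* the share of the 5 cargo receptors went from 17.5% ± 0.75 to 11.3% ± 0.20, and for *Sqstm1* from 63.0% ± 1.41 to 70.3% ± 0.75. *Retreg1* held 12.7% ± 0.85 of its family in si-NC and 6.54% ± 1.81 in si-*Snhg18*, and *Retreg2* 54.5% ± 2.61 and 62.6% ± 1.00. In the *Bnip3* and *Bnip3l* pair, the share of *Bnip3* was 80.7% ± 0.08 in si-NC and 76.9% ± 1.38 in si-*Snhg18*, although the level of *Bnip3* itself overlapped between the groups. *Atg4b* had a share of its family of 52.4% ± 1.41 and 54.7% ± 2.31, with overlapping libraries. On annotated exon lengths the shares had other sizes, with *Map1lc3b* at 9.14% ± 0.18 and 11.8% ± 0.47 and *Tax1bp1* at 8.44% ± 0.42 and 5.22% ± 0.11. On those lengths *Gabarap* was at 48.3% ± 0.89 and 46.5% ± 1.31, with overlapping libraries, so its separation depends on the length used. No test was run on these shares, and 0.1 is the smallest two-sided p that an exact permutation test allows for 3 libraries against 3.

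**Figure D5:**
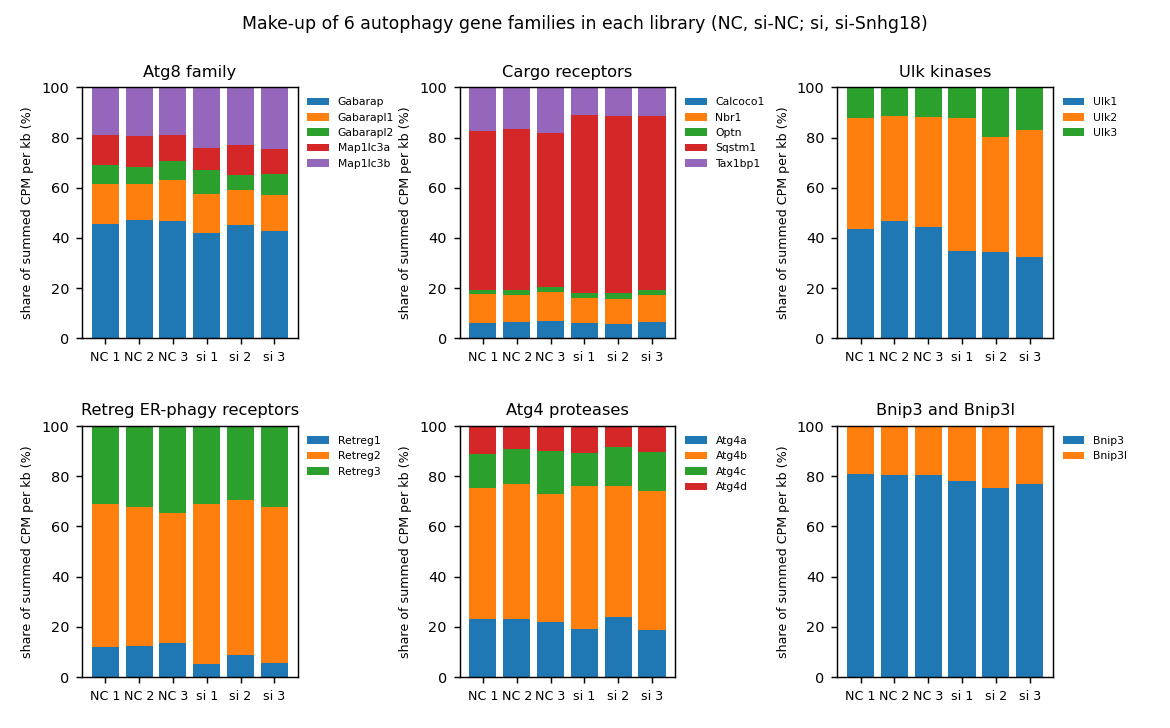
Share of the summed CPM per kb taken by each gene of 6 families in each library (NC, si-NC; si, si-*Snhg18*), as stacked bars that add to 100%. The share of *Ulk1* is lower in all 3 si-*Snhg18* libraries (32.4 to 34.8%) than in si-NC (43.6 to 46.8%), and that of *Tax1bp1* likewise (11.1 to 11.5% against 16.7 to 18.2%).

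Beyond the core genes, a list of upstream regulators, fusion factors and further receptors was examined, of which 61 genes were tested. This list too was chosen with earlier results of these data known. Of these, 5 rose and 4 fell, against 7.36% of all genes called, and with the block 17 rose and 9 fell, against 27.2%. The median log2 fold change was 0.15, against 0.01 over all genes. The genes that rose were *Trp53inp2*, *Rragd*, *Rtn3*, *Rptor* and *Tollip*, and those that fell were *Wdr45b*, *Trp53inp1*, *Epg5* and *Sesn2*. *Trp53inp2* (DOR), which binds LC3, was at 235, 231 and 246 CPM in si-NC and 327, 343 and 349 CPM in si-*Snhg18* (log2 fold change 0.52 ± 0.06, edgeR adjusted p = 0.0111), whereas its paralog *Trp53inp1* was at 55.5, 60.7 and 51.5 and at 32.8, 40.6 and 33.8 CPM (-0.65 ± 0.11, edgeR adjusted p = 0.0264). The groups of both genes were apart, in opposite directions. *Rtn3*, an ER-phagy receptor for tubules, had a log2 fold change of 0.42 ± 0.07 (edgeR adjusted p = 0.0265). Both *Rragd* and *Rptor*, which act in the sensing of amino acids by mTORC1, were higher by 0.47 ± 0.10 and 0.38 ± 0.07 (edgeR adjusted p = 0.0398 and 0.0282). *Wdr45b* (WIPI3) fell the most of the genes called on this list, from 59.6 ± 2.73 to 36.4 ± 0.48 CPM (mean ± SD, n = 3, log2 fold change -0.71 ± 0.07, edgeR adjusted p = 0.00761). *Epg5*, a tether for fusion with lysosomes, and *Sesn2*, a leucine sensor upstream of mTORC1, had log2 fold changes of -0.49 ± 0.06 and -0.48 ± 0.09 (edgeR adjusted p = 0.0125 and 0.0284). The *Sesn2* paralog *Sesn1* had the highest log2 fold change of the list, 1.01 ± 0.48, called only with the block (edgeR adjusted p = 0.253 without and 0.0144 with it). *Sesn3* had one of -0.45 ± 0.11, also called only with the block (edgeR adjusted p = 0.0569 and 0.00738). Of the 5 transcription factors that drive autophagy genes, *Tfeb*, *Tfe3*, *Mitf*, *Foxo1* and *Foxo3*, 0 were called in either edgeR fit or by DESeq2, 0 had an unadjusted p below 0.05 in edgeR without the block, and 2 (*Tfeb* and *Foxo3*) were called by limma-voom with sample weights. That last method called 6049 of all 14531 genes tested.

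Sequences before the start sites were read for motifs of factors known to act on this pathway. RefSeq promoters (GRCm38.p6, 250 bases before to 50 bases after each start) were matched by symbol for 42 of the 50 genes. The letters CACGTG, which TFEB family factors and other E-box proteins can bind, were found in 7 of the 42 (16.7%) and in 8.09% of the 27025 genes with a RefSeq promoter. The longer CLEAR consensus of TFEB targets was in 0 of 42 and in 0.37% of those genes. ACGTG, the core of the hypoxia response element, was in 19 of 42 (45.2%) and in 21.8% of those genes, and every CACGTG also counts as an ACGTG. Both strands were searched, a gene counted where any of its starts held the letters, and a match is not a binding site. The 27025 genes were not limited to protein-coding or expressed genes, as the 42 are, and base composition was not matched. The shares therefore compare unlike sets. The 250 bases before the start, 5′ to 3′ along the gene, are shown for genes on which the results turn, with ACGTG on either strand in capitals. *Retreg2* (chr1:75142536-75142785, plus strand), which rose, has 2 CACGTG. The other genes with CACGTG all had log2 fold changes below 0. These were *Atg3* (-0.02), *Atg5* (-0.08), *Atg7* (-0.10), *Atg14* (-0.06), *Bnip3* (-0.01) and *Retreg1* (-0.75). Of these only *Retreg1* was called by edgeR, as lower with the block. A link between motif and change was not tested. *Atg9a* (chr1:75192011-75192260, minus strand) has the highest fold change. As counted, this gene starts at 75192196, inside the window, so most of the printed *Atg9a* bases lie within the counted gene. *Bnip3* (chr7:138909507-138909756, minus strand) was not called in either fit. *Tax1bp1*, which fell, is shown at both of its starts. The upstream one (chr6:52713479-52713728, plus strand) matches the gene start in the counts and holds no ACGTG, and the downstream one (chr6:52713915-52714164) holds 1.
Retreg2: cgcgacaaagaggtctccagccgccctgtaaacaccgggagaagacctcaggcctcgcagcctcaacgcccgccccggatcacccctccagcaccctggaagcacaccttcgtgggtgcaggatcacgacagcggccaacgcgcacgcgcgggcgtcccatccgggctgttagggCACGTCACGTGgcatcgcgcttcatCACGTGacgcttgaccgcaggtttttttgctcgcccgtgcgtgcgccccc
Atg9a: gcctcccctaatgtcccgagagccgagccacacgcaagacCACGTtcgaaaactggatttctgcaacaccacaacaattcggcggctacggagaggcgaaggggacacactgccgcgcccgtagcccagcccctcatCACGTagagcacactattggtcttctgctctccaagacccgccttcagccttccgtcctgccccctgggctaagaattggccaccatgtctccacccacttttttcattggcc
Bnip3: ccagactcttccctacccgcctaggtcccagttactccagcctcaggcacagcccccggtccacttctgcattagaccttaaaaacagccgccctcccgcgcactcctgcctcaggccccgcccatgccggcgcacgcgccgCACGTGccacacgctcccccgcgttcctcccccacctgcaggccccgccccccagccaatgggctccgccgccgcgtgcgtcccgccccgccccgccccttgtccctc
Tax1bp1 upstream start: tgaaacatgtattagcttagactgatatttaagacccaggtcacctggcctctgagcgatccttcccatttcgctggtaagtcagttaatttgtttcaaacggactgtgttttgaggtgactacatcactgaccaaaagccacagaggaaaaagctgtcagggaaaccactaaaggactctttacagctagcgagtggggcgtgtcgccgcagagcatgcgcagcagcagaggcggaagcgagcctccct
Tax1bp1 downstream start: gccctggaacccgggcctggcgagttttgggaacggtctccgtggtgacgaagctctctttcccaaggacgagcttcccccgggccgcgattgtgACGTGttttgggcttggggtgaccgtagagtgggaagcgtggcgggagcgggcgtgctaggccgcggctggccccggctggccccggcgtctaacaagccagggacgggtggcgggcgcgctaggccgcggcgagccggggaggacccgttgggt
*Atg4b* holds no ACGTG in its window (chr1:93754655-93754954, plus strand). As counted, *Atg4b* starts at 93751500, so this window lies inside the counted gene and not before it. *Atg12* was not among the genes with a matched promoter.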

How the data were processed

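Libraries were made by the authors from total RNA of transfected mPASMCs with a TruSeq Stranded mRNA kit. The authors deposited read counts per Ensembl gene as whole numbers, not normalized, beside exon lengths and GRCm38.p6 positions. HISAT2 and mm10 are named in the submitters' processing notes. The versions, the counting program, the strand setting and the read filters are not given in the sources used here, so reads of overlapping genes and close paralogs may be divided in ways the counts do not show. All count columns belonged to the 6 libraries. Groups and replicate numbers came from the sample labels.

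The analysis used edgeR 4.0.16 under R 4.3.3. A filterByExpr filter (minimum count 10) left 14531 genes, TMM gave the scaling, and glmQLFit with glmQLFTest gave the comparison. P-values were adjusted by Benjamini-Hochberg over these genes, and genes were called at an adjusted p below 0.05. The common biological coefficient of variation was 0.218. Standard errors are the log2 fold change divided by the square root of F. Replicate numbers were taken to pair the libraries, since every same-numbered pair correlated above 0.1 in its deviations over all genes (over the 50 genes, r = 0.22, 0.43 and 0.17), although the sources do not say that same-numbered libraries share a culture. Deviations from a group mean depend on each other, so a library apart in both groups can raise these correlations without any pairing. They do not establish that the libraries are paired, and the calls with the block rest on that assumption. Both fits were tested on simulated data. The simulated libraries had no effect of replicate number, so that test cannot show whether the libraries are paired.

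Alternatives were RLE factors, library totals, 2 other filters on low counts, DESeq2 1.42.0, limma 3.58.1 (voom with sample weights), the replicate block in edgeR and DESeq2, a 1.5-fold threshold and leaving out each library. The block without each replicate number was added after seeing the data. Exon overlaps came from GENCODE, start sites and sequences from RefSeq, and motif counts used no test. The members, roles, marker and pathway lists were chosen with earlier results of these data known. Genes named with values were *Snhg18*, members called in either edgeR fit, the landmark genes *Map1lc3b*, *Sqstm1*, *Becn1*, *Ulk1*, *Atg5*, *Bnip3* and *Pink1*, the largest rise and fall, and up to 4 called genes per direction of the pathway list. *Gabarap*, *Wipi1*, *Atg4a*, *Tollip*, *Sesn1*, *Sesn3*, the other members given with a fold change, the marker genes and the overlapping genes fall outside this rule and were named after their values were seen.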

Additional observations from a re-analysis of the deposited data

How the results depend on the processing

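Counts of calls without the block are given first. The 4 autophagy genes called kept their direction in every alternative run, and *Atg4b*, *Retreg2* and *Tax1bp1* were also called under RLE factors, library totals, both other filters, DESeq2, limma-voom and the block. *Atg12* lost its call without the filter on low counts. Over all genes the count was 1069, against 2069 in DESeq2, 6049 in limma-voom with sample weights and 533 with the 1.5-fold threshold.

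Autophagy genes numbered 3 higher and 1 lower, 7 and 2 in DESeq2, 19 and 7 in limma-voom, and 0 and 0 with the 1.5-fold threshold. Without the filter, or with at least 1 CPM in 3 libraries, 2 were lower. The pathway list numbered 5 higher and 4 lower, 10 higher in DESeq2, 22 and 12 in limma-voom, 2 higher without the filter, and 0 higher and 2 lower at 1.5-fold. Leaving out 1 library gave 0 to 3282 calls over all genes, 0 to 12 autophagy genes higher and 0 to 2 lower, and 0 to 15 and 0 to 5 of the pathway list. Over all genes there were 0 calls without si-NC 1, si-NC 3 or si-*Snhg18* 3, 158 without si-NC 2, 319 without si-*Snhg18* 1 and 3282 without si-*Snhg18* 2. The cause was not tested.

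With the replicate block, that is with libraries paired by number, 3954 genes were called, with 16 autophagy genes higher and 2 lower, and 17 higher and 9 lower on the pathway list. DESeq2 with the block gave 3102, 12 and 2, and 11 higher on the pathway list. At 1.5-fold with the block, 1 autophagy gene was higher, 1 was lower, and 1 pathway gene was higher and 3 were lower. Leaving out 1 replicate number with the block, a setting added after seeing the data, gave 651 to 4542 calls over all genes, 0 to 15 autophagy genes higher and 1 to 7 lower, and 1 to 17 and 3 to 13 of the pathway list. Number 3 was the one whose omission left 651 calls and 1 autophagy gene.

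Fold changes near 0 changed sign. *Atg5* went from -0.077 to 0.0037 in limma-voom, and *Pink1* from 0.08 to -0.060. Leaving out 1 library, *Atg5* ran from -0.20 to 0.071 and was above 0 without si-*Snhg18* 2, and with the block and without number 2 it was 0.069, in a range from -0.22. *Bnip3* ran from -0.19 to 0.16 and was above 0 without si-NC 1 (0.014), si-NC 3 (0.042) or si-*Snhg18* 2, and with the block and without number 2 it was 0.073, in a range from -0.17. Depth limits *Atg4a-ps*, which had 4 to 23 reads per library.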
